A study of Mus musculus with 69 samples.

Results

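The RNA of 10 genes for calcium handling and vascular ion channels was followed through cultured murine vascular cells under metabolic and humoral stress. The members are a list of gene names, and all 10 were found among the 56953 gene rows of the count tables. They encode the voltage-gated channel Cacna1c, the BK channel subunits Kcnma1 and Kcnmb1, the release channels Itpr1 and Ryr2, the store pump Atp2a2 with its inhibitor Pln, and the entry proteins Trpc1, Orai1 and Stim1. The poly(A) RNA of 69 libraries had been sequenced, 16 of WT VSMC, 15 of KO VSMC and 38 of EC. The name WT VSMC stands for primary cells cultured from the aorta of male C57BL/6 mice and used after passaging. KO VSMC were the same kind of cell from EGFR-KOsmc mice, in which the smooth muscle promoter SM22 drives Cre against a floxed Egfr gene, so that Egfr is removed only where that promoter is or was active. EC were cells from the heart of male mice, all labelled as wild-type endothelial cells. They were bead-sorted for CD31 after removal of CD45-positive cells. Age was not given. Each cell type was kept for 24 h under Control conditions, with HG+FFA, with AII+NA or with ALL stressors, and serum-free medium with albumin was common to all 4. HG+FFA stood for 20 mM glucose with free fatty acids, given as 100 µM by the labels and as 100 µM each of oleate and palmitate by the study, AII+NA for angiotensin II at 30 nM together with a catecholamine at 300 nM, which the sample labels call epinephrine and the study norepinephrine, and ALL for all of these together. The libraries formed 18 sets, numbered 1 to 4 in WT VSMC, 5 to 8 in KO VSMC and 9 to 18 in EC, each made from the cells of 1 animal. Every condition had n = 4 in WT VSMC. In KO VSMC n was 4, or 3 under ALL (set 5 not analysed here), and in EC it was 10, or 9 for Control and AII+NA (sets 10 and 15 not analysed here, in this order). EC sets 17 and 18 shared an animal, which leaves 9 animals for EC, EC sets 9 and 10 came from the animals of WT VSMC sets 1 and 2, and EC sets 15 and 16, labelled as wild-type cells, from the animals of KO VSMC sets 7 and 6.

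Contraction of smooth muscle follows cytosolic Ca2+. Depolarisation opens L-type channels, whose pore is the product of Cacna1c, while vasoconstrictors that act through Gq make IP3, which opens the store channel encoded by Itpr1. Ryanodine receptors such as Ryr2 release further Ca2+ in brief local events, and these open BK channels, with the pore from Kcnma1 and, in smooth muscle, a β subunit from Kcnmb1, so that the membrane is pulled back towards rest. The pump SERCA2 (Atp2a2) refills the store and is held back by phospholamban (Pln). An empty store is sensed by Stim1, which opens Orai1 in the plasma membrane, and Trpc1 belongs to the cation channels linked to receptors and store filling. In endothelial cells, which lack much of the voltage-gated machinery, the IP3 and store-operated route is the usual source of Ca2+ signals.

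The libraries of WT VSMC held 23626664 to 37801299 counts, those of KO VSMC 23238979 to 35120866 and those of EC 17166133 to 43240489. FPM is the count of a gene relative to the total of its library, after TMM scaling over all libraries. A library without a single count leaves room for up to 3 counts, which is 0.0694 to 0.175 FPM at these depths and covers counting error only. Egfr, the gene targeted in KO VSMC, had set means of 249, 324, 427 and 433 FPM in WT VSMC sets 1 to 4 and of 1.24, 0.949 and 1.80 FPM in KO VSMC sets 6 to 8, whereas set 5 held 36.3 FPM. The labelled cell types were compared with their markers. Of the 8 smooth muscle markers, those other than Acta2 were low beside it and beside the fibroblast marker Dcn. Over the 16 libraries of WT VSMC the median was 886 FPM for Acta2 and 1459 FPM for Dcn. It was 69.7 FPM for Smtn, 37.2 for Lmod1, 21.4 for Cnn1, 9.59 for Synpo2, 6.44 for Myh11, 4.06 for Tagln and 1.47 for Des. In KO VSMC the median was 1291 FPM for Acta2 and 287 FPM for Dcn. Summed over 9 markers, endothelial RNA came to 60.8, 137 and 61.8 FPM in EC sets 9, 11 and 13, to 547 FPM in set 17, to 799 FPM in set 16 and to between 1971 and 4485 FPM in the remaining sets, while it was 3.26 to 60.3 FPM in VSMC sets. The label EC was thus not borne out by these markers in sets 9, 11 and 13, which stay in all EC values unless stated. Without them 0 members were called in the EC stressor comparisons, as with them. Summed fibroblast marker RNA exceeded the endothelial sum in these sets and also in sets 10, 16 and 17, at 2353, 3341 and 4321 FPM. It was below the endothelial sum in sets 12, 14, 15 and 18. In every VSMC set summed fibroblast marker RNA exceeded the sum of the 8 smooth muscle markers. The cardiomyocyte genes Myh6, Actc1 and Nppa had a median of 0 FPM in every cell type, while Tnnt2 had medians of 21.8, 53.8 and 92.1 FPM in WT VSMC, KO VSMC and EC. In bulk RNA fewer cells of a type and less RNA per cell cannot be told apart, and VSMC and EC also differ in the batch given by the labels, B1 and B2.

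Under Control conditions the store pump and the store-operated entry pair had the highest levels per length in VSMC. Expressed as FPM per kb of exon, Atp2a2 led in all 3 cell types, with a median of 31.1 in WT VSMC (range 25.2 to 55.1, n = 4), 21.0 in KO VSMC (19.6 to 39.5, n = 4) and 19.1 in EC (15.6 to 46.4, n = 9). In WT VSMC Stim1 followed with 14.2 FPM per kb (12.2 to 14.7) and Orai1 with 11.2 (7.61 to 12.6), and their ranges overlapped. Itpr1 came next with 1.47 FPM per kb (1.44 to 2.07). Below it by median, Kcnma1 at 0.863 (0.429 to 4.57), Trpc1 at 0.841 (0.480 to 1.197) and Cacna1c at 0.838 (0.672 to 1.01) could not be ordered, as their ranges overlapped. The range of Kcnma1 also included that of Itpr1. In KO VSMC the order by median was Atp2a2, Stim1 at 11.9, Orai1 at 10.3, Itpr1 at 1.62, Trpc1 at 1.06, Cacna1c at 0.671 and Kcnma1 at 0.108 FPM per kb. The range of Orai1 (8.08 to 10.7) lay within that of Stim1 (5.84 to 13.2), and from Itpr1 downwards each range overlapped with that of the next. EC stood apart in the place of Itpr1, which at 7.56 FPM per kb (2.62 to 11.8) overlapped with Stim1 at 11.6 (7.89 to 19.6) and with Orai1 at 5.27 (1.81 to 9.32), whereas Cacna1c at 1.34 (0.113 to 4.17) and Trpc1 at 1.19 (0.537 to 2.52) had lower medians, with ranges that overlapped with Orai1. Of the other subunits, Orai3 exceeded Orai1 per kb in WT VSMC (median 18.2), and the other IP3 receptors Itpr3 and Itpr2 had medians of 2.50 and 1.91 FPM per kb.

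**Figure D1:**
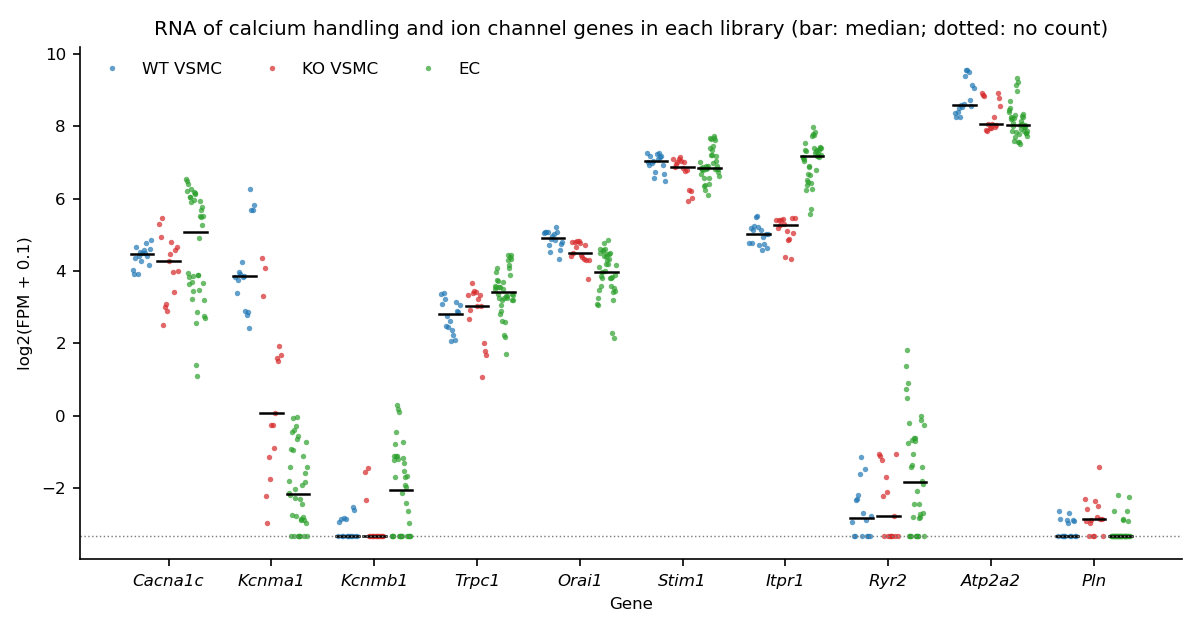
Each point is a library and gives log2(FPM + 0.1) of a member in WT VSMC, KO VSMC or EC, over all 4 conditions, with the median as a bar and the value of a library without counts as a dotted line. Kcnmb1, Ryr2 and Pln lie at or near that line in VSMC, and Kcnma1 and Itpr1 separate EC from WT VSMC.

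Kcnmb1, Pln and Ryr2, the members that mark contractile or cardiac cells, were at the edge of detection. In the 4 Control libraries of WT VSMC together, Kcnmb1 had 2 counts, Pln 2 and Ryr2 4. In KO VSMC they had 7, 9 and 16 counts, and in the 9 Control libraries of EC 48, 2 and 129. Kcnmb1 was at 0 in 10 of 16 libraries of WT VSMC and in 12 of 15 of KO VSMC, where all 3 libraries with counts belonged to set 5. In EC its highest library reached 1.13 FPM. Pln was at 0 in 9 of 16, 4 of 15 and 31 of 38 libraries of WT VSMC, KO VSMC and EC, and never exceeded 0.273 FPM. Ryr2 reached 0.357 FPM in WT VSMC, 0.383 in KO VSMC and 3.46 FPM in EC. The remaining BK β subunits gave no replacement, since Kcnmb2 had no count in the Control libraries of VSMC and Kcnmb4 did not exceed 0.134 FPM there. No stressor comparison is given for Kcnmb1 and Pln, which did not pass the count filter in any cell type, nor for Ryr2 in WT VSMC. Where Ryr2 was tested, in KO VSMC and EC, its log2FC against Control lay between -1.32 and 1.06 and its SE between 0.74 and 1.37, so that these counts could not show a change.

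The start regions of the members differed in CpG content, and its relation to their levels was not tested. In RefSeq's promoter table (GRCm38.p6, 250 bases before to 50 bases after the start, 8 of the 10 members matched, Itpr1 and Atp2a2 not) the windows of Kcnma1 and Stim1 held 36 and 38 CpG, and those of Kcnmb1 and Pln 1 each. They are shown as examples of CpG-rich and CpG-poor start regions, were chosen after the values had been seen, and have each CpG in capitals. The Kcnma1 window is chr14:24004156-24004455 on the minus strand, that of Stim1 chr7:102267569-102267868 on the plus strand, that of Kcnmb1 chr11:33962763-33963062 on the plus strand and that of Pln chr10:53337436-53337735 on the plus strand, all 5′ to 3′:
Kcnma1: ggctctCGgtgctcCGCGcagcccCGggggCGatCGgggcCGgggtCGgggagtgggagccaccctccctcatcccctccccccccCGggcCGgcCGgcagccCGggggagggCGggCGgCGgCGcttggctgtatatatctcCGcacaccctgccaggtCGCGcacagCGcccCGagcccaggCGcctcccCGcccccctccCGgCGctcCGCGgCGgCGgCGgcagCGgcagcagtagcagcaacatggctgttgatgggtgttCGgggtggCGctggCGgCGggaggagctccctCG
Stim1: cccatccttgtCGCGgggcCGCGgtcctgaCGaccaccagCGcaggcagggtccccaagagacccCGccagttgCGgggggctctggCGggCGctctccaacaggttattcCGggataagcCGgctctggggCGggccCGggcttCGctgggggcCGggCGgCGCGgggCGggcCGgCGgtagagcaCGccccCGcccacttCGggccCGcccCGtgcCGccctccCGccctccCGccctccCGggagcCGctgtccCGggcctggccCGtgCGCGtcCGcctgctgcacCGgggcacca
Kcnmb1: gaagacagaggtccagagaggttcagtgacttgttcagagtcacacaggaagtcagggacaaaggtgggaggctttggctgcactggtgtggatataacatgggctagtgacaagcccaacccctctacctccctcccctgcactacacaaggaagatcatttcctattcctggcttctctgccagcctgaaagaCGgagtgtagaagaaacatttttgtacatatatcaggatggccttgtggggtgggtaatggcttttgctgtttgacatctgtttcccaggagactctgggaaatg
Pln: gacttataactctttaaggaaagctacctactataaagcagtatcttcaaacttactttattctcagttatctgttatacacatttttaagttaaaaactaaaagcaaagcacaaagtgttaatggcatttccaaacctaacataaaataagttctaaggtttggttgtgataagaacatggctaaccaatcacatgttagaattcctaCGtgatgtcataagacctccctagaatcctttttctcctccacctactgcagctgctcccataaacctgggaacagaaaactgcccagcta
The median over all promoters of the table was 7 CpG, 14.1% had at most 1 and 6.23% had at least 36. Ryr2, which also had almost no counts, had 18 CpG, and Orai1, Trpc1 and the 3 windows of Cacna1c had 36, 22 and 3, 57 and 7. The CArG box was in 0 of the 10 windows of these 8 genes and in 1.63% of all promoters, and TATAAA, searched on both strands like the CArG box, was found once, in the window of Pln, 219 bases before the start, and in 13.6% of all promoters.

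No member was called under any stressor. A call is an FDR below 0.05 by edgeR's quasi-likelihood F-test, fitted over all genes with the set as a block. In WT VSMC 7 members were tested. Under HG+FFA 0 of 7 passed, where 0.538% of the 16905 genes tested did, 1 had an unadjusted p under 0.05 (11.2% of all genes) and DESeq2 called 0 (1.52%). Under AII+NA 0 of 7 passed (0.0532% of all genes), 4 had an unadjusted p under 0.05 (9.42%) and DESeq2 called 0 (1.16%). Under ALL 0 of 7 passed (7.45%), 4 had an unadjusted p under 0.05 (21.7%), and DESeq2 called 1, Cacna1c (5.02% of all genes). The median log2FC of the members was -0.00097, 0.02 and 0.20 in this order, against -0.0058, -0.01 and -0.01 over all genes tested. The 3 comparisons share their Control libraries.

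In KO VSMC and EC 8 members were tested, Ryr2 being the additional member. In KO VSMC 0 of 8 passed under HG+FFA (0.439% of 17538 genes), 0 under AII+NA (0%) and 0 under ALL (0.399%). An unadjusted p under 0.05 was found for 1, 2 and 1 of the 8, against 12.4%, 9.76% and 10.5% of all genes, and DESeq2 called 0 in each (1.68%, 1.13% and 1.52%). In EC 0 of 8 passed under HG+FFA (3.53% of 17148 genes), 0 under AII+NA (0%) and 0 under ALL (3.18%). An unadjusted p under 0.05 was found for 2, 0 and 1 of the 8, against 16.9%, 6.67% and 16.2% of all genes, and DESeq2 again called 0 (7.2%, 0.252% and 5.99%). The departure from additivity, which is the log2 effect of ALL stressors less the sum of the separate log2 effects, was called for 0 members in WT VSMC, KO VSMC and EC, as for 0% of all genes in each, while 0, 1 and 3 members had an unadjusted p under 0.05 (1.72%, 6.59% and 8.42% of all genes) and DESeq2 called 0 in each (0.238%, 0.293% and 0.284%). By the rule of the study, which asks for a call by both edgeR and DESeq2, a minimum of 3 FPM in one of the groups and a log2FC of 0.64 or more in size, 0 members passed in any of the stressor comparisons, against 0.29%, 0.0473% and 2.18% of all genes in WT VSMC (HG+FFA, AII+NA, ALL), 0.291%, 0% and 0.314% in KO VSMC and 0.653%, 0% and 0.636% in EC.

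**Figure D2:**
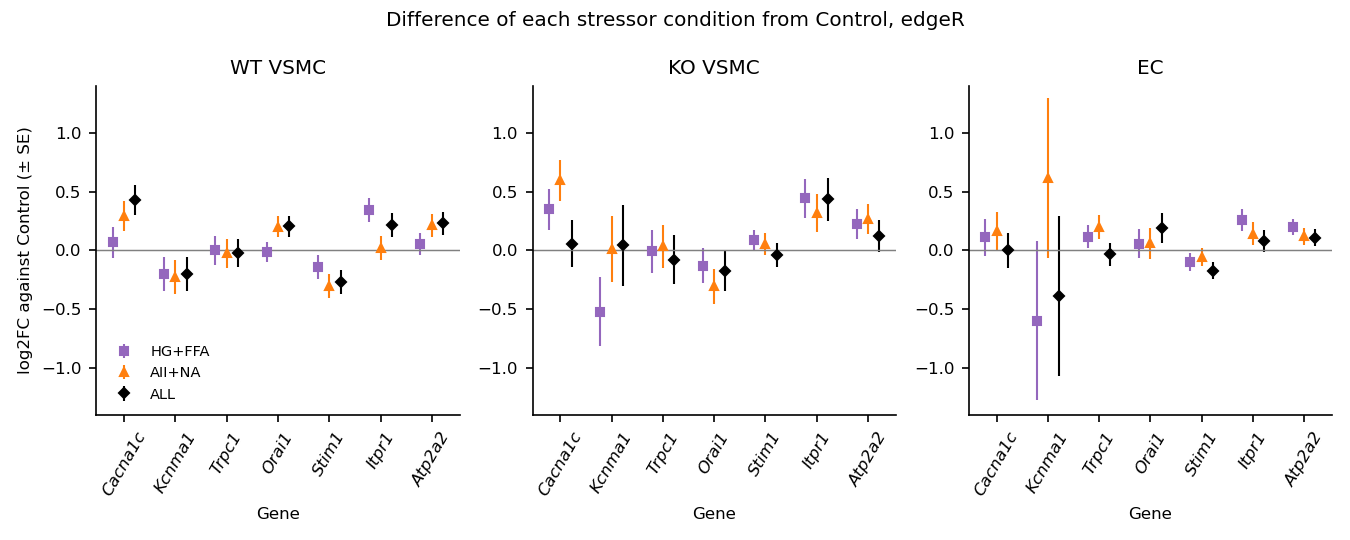
The log2FC against Control with its SE is plotted for the 7 members with enough counts in all cell types under HG+FFA, AII+NA and ALL stressors. Cacna1c under ALL stressors in WT VSMC (0.43, SE 0.13) and Itpr1 under HG+FFA in WT VSMC (0.34, SE 0.10) lie furthest from 0 relative to their SE in that cell type, and the wide bars of Kcnma1 in EC go with its low counts.

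Cacna1c (ENSMUSG00000051331, GRCm39 chromosome 6, 118564201 to 119173851, minus strand) encodes the pore of the L-type Ca2+ channel Cav1.2. In WT VSMC sets 1 to 4 it amounted to 16.4, 15.02, 22.5 and 21.1 FPM under Control conditions and to 25.1, 19.4, 27.0 and 28.7 FPM with ALL stressors. Every set was higher with ALL stressors than in its own Control, although the 2 groups overlapped. The sum of 8 smooth muscle markers also differed between conditions in WT VSMC. Its median was 733 FPM in Control, 624 FPM with HG+FFA, 1574 FPM with AII+NA and 1195 FPM with ALL stressors. It was above Control in 4 of 4 sets with AII+NA and in 3 of 4 with ALL stressors. Most of it was Acta2, with a median of 886 FPM over the 16 libraries against 1026 FPM for the sum. Of the 8 markers, 0 were called with HG+FFA, 0 with AII+NA and 1 with ALL stressors (0.538%, 0.0532% and 7.45% of all genes). The part of this sum in the values of Cacna1c, Atp2a2 and Orai1 was not tested. The log2FC of Cacna1c was 0.43 (SE 0.13, FDR 0.0525 by edgeR), and DESeq2 gave 0.44 with an FDR of 0.0337. Of the members this was the value nearest to the threshold under any stressor, and the side it fell on was decided by the settings: the FDR was 0.0238 with only the Control and ALL libraries in the fit, 0.0433 without set 2, 0.0493 with DESeq2's size factors and 0.00188 without the count filter. It was as high as 0.817 over all alternatives. AII+NA alone gave 20.6, 23.0, 22.5 and 24.5 FPM (log2FC 0.29, SE 0.13, FDR 0.500), and HG+FFA alone 14.9, 21.4, 23.9 and 17.9 FPM (0.07, SE 0.13, FDR 0.900). The departure from additivity was 0.07 (SE 0.18) and was not called.

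In Cacna1c, KO VSMC varied more from animal to animal. Their set means of Cacna1c were 38.0, 7.32, 21.3 and 18.8 FPM in sets 5 to 8, against 19.2 to 24.0 FPM in WT VSMC. With AII+NA each set exceeded its Control, at 44.5, 8.37, 28.0 and 25.1 FPM after 39.0, 5.64, 19.4 and 10.5 FPM, for a log2FC of 0.60 (SE 0.17, FDR 0.509). This FDR was 0.00592 without the count filter. ALL stressors gave 7.29, 15.7 and 16.03 FPM in sets 6 to 8, with a log2FC of 0.06 (SE 0.20, FDR 0.945). The departure from additivity of -0.89 (SE 0.26, FDR 0.658) was the largest in size among the members tested in KO VSMC, and its FDR was 0.0251 without the count filter. With HG+FFA the 4 sets gave 30.5, 7.99, 22.1 and 23.7 FPM (log2FC 0.35, SE 0.18, FDR 0.423), and without set 5, the only set below its Control, the log2FC was 0.60 (FDR 0.0418). With ALL stressors the log2FC of WT VSMC exceeded that of KO VSMC by 0.38 (SE 0.25, FDR 0.756), so a difference between the genotypes was not shown.

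In EC Cacna1c ranged from 2.53 to 93.2 FPM under Control conditions (median 29.9, n = 9), from 5.79 to 89.2 FPM with HG+FFA (median 26.9, n = 10), from 6.64 to 74.4 FPM with AII+NA (median 54.2, n = 9) and from 2.03 to 85.1 FPM with ALL stressors (median 30.1, n = 10). The sets differed far more than the conditions, for which the paired log2FC were 0.11 (SE 0.16), 0.16 (SE 0.16) and -0.00046 (SE 0.15). The highest set means, 85.5, 69.1 and 67.5 FPM in sets 9, 13 and 11, were found where endothelial marker RNA was lowest, 47.3 and 45.96 FPM went with sets 16 and 17, and the 5 sets with the most endothelial marker RNA had 4.39 to 13.9 FPM. Fibroblast marker RNA was summed as 3645, 9909 and 8696 FPM in sets 9, 13 and 11, and as 605 to 4321 FPM in the other sets. Smooth muscle marker RNA was summed as 853, 2947 and 3203 FPM in sets 9, 13 and 11 and as 223 to 731 FPM in the other sets. The part of other cell types in this spread was not tested.

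**Figure D3:**
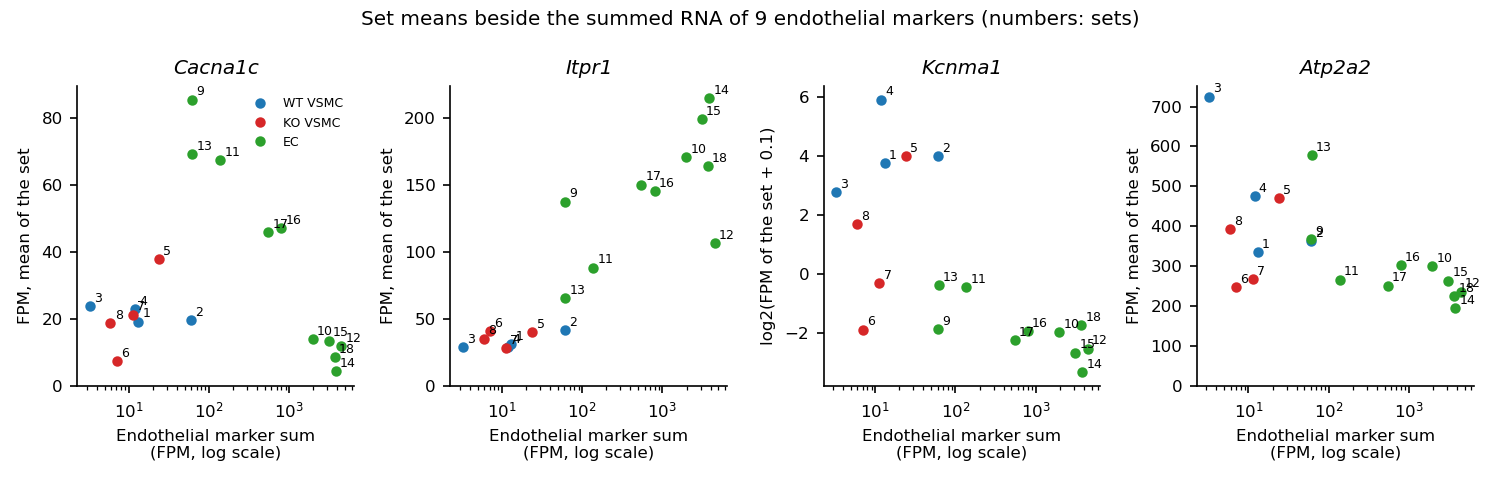
Each point is the mean of a set (numbered), with the summed RNA of 9 endothelial markers on a log axis and the FPM of Cacna1c, Itpr1, Kcnma1 (as log2(FPM + 0.1)) or Atp2a2. Within EC, Cacna1c is at 67.5 FPM or above in sets 9, 11 and 13 and at 13.9 FPM or below in sets 10, 12, 14, 15 and 18, whereas Itpr1 is lowest in set 13 (65.9 FPM) and highest in set 14 (215 FPM).

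Kcnma1 (ENSMUSG00000063142, chromosome 14, 23339499 to 24064559, minus strand), the pore of the BK channel that damps depolarisation, had the largest spread between VSMC animals among the 7 members tested in both genotypes. In WT VSMC the set means were 13.4, 15.6, 6.67 and 59.5 FPM, and in KO VSMC 15.8, 0.172, 0.713 and 3.11 FPM. KO VSMC sets 6 to 8 thus had less Kcnma1 than any WT VSMC set, and set 5, which kept 36.3 FPM of Egfr, lay within the range of WT VSMC. Summed smooth muscle marker RNA was 3242 FPM in set 5 and 881 to 1993 FPM in sets 6 to 8, with 765 to 1295 FPM in WT VSMC sets. Summed fibroblast marker RNA was 5880 FPM in set 5, 1491 to 2161 FPM in sets 6 to 8 and 4408 to 9437 FPM in WT VSMC sets. The part of either in the level of Kcnma1 was not tested. Under Control conditions the values were 14.3, 15.05, 7.29 and 77.7 FPM in WT VSMC and 20.6, 0.116, 0.739 and 2.92 FPM in KO VSMC. The log2FC of KO VSMC against WT VSMC was -2.21 (SE 1.28, FDR 0.470) and thus within the spread between animals. Without set 5 it was -4.52 (FDR 0.0791), and without set 4 -0.99 (FDR 0.839). A statement on Kcnma1 in KO VSMC therefore rests on which animals are counted. In this comparison 0 of 7 members passed (0.00622% of 16089 genes), 0 had an unadjusted p under 0.05 (12.2%) and DESeq2 called 0 (2.01%). Egfr itself had a log2FC of -5.15 (SE 1.37) with an FDR of 0.320, and DESeq2 gave an FDR of 0.00858 for it.

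The stressors left Kcnma1 within this spread. In WT VSMC it was 10.5, 19.0, 6.85 and 51.9 FPM with HG+FFA, 13.3, 14.1, 7.25 and 51.4 FPM with AII+NA and 15.6, 14.5, 5.27 and 56.9 FPM with ALL stressors, and the log2FC of -0.20 (SE 0.14), -0.22 (SE 0.15) and -0.20 (SE 0.14) had FDR of 0.662, 0.687 and 0.474. In KO VSMC the log2FC was -0.52 (SE 0.29, FDR 0.464) with HG+FFA, 0.01 (SE 0.28, FDR 0.988) with AII+NA and 0.04 (SE 0.35, FDR 0.981) with ALL stressors. In EC the highest of 38 libraries reached 0.880 FPM and 8 had no count at all. Of the exon bases of Kcnma1, 6.26% are shared with a long noncoding RNA on the opposite strand, and whether counting used strand was not stated.

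Itpr1 (ENSMUSG00000030102, chromosome 6, 108190048 to 108528070, plus strand), the IP3 receptor that releases stored Ca2+ after stimulation of Gq-coupled receptors, had higher values with HG+FFA in most sets but was not called. In WT VSMC it went from 27.1, 38.0, 26.5 and 26.8 FPM under Control conditions to 36.2, 44.7, 35.3 and 32.6 FPM. Every set had a higher value with HG+FFA, and set 2 was the highest in both groups. The log2FC was 0.34 (SE 0.10, FDR 0.182), with an FDR of 0.0387 when only these 2 conditions were fitted and 0.0281 without the count filter. In KO VSMC the values were 42.2, 38.8, 20.7 and 20.0 FPM before and 36.7, 42.9, 34.6 and 44.1 FPM with HG+FFA, higher in 3 of 4 sets (log2FC 0.44, SE 0.16, FDR 0.324). Set 5 was again the exception, and without it the log2FC was 0.65 (FDR 0.0277). Without the count filter the FDR was 0.0283. In EC the range moved from 48.1 to 216 FPM (median 139, n = 9) to 83.8 to 255 FPM (median 152, n = 10), higher in 7 of 9 sets with both libraries (log2FC 0.26, SE 0.09, FDR 0.131). The log2FC of WT VSMC less that of KO VSMC was -0.09 (SE 0.20) and was not called.

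AII+NA gave 27.2, 46.3, 23.8 and 24.7 FPM of Itpr1 in WT VSMC, 2 sets above and 2 below their Control (log2FC 0.02, SE 0.10, FDR 0.977). With ALL stressors it was 35.2, 37.0, 30.6 and 32.7 FPM (0.22, SE 0.10, FDR 0.243), which lay between the effects of HG+FFA and AII+NA. In KO VSMC the corresponding log2FC were 0.32 (SE 0.16, FDR 0.511) and 0.44 (SE 0.18, FDR 0.422), and in EC 0.14 (SE 0.10, FDR 0.749) and 0.08 (SE 0.09, FDR 0.7505).

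**Figure D4:**
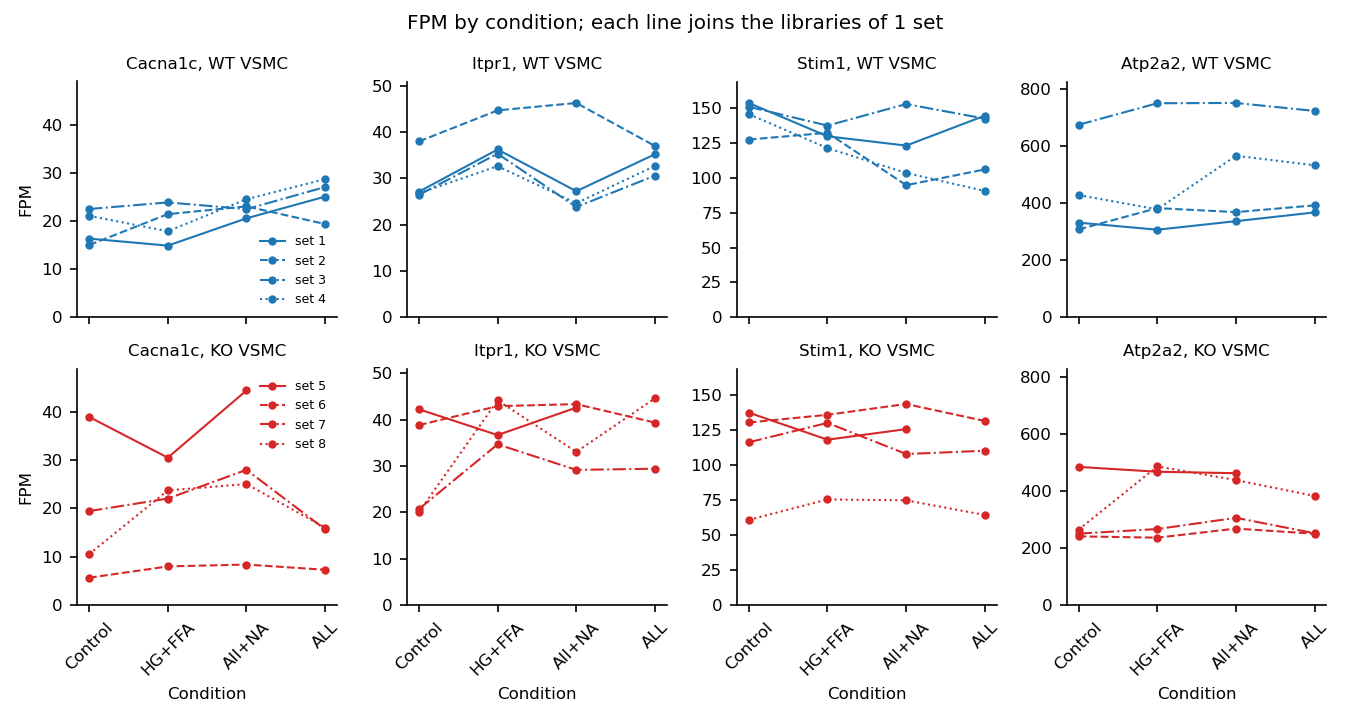
FPM of Cacna1c, Itpr1, Stim1 and Atp2a2 under the 4 conditions, with each line joining the libraries of a set of WT VSMC (upper row) or KO VSMC (lower row) on the same vertical scale for a gene. The lines of Itpr1 go up from Control to HG+FFA in all 4 sets of WT VSMC, and those of KO VSMC sets 5 to 8 lie far apart for Cacna1c.

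Atp2a2 (ENSMUSG00000029467, chromosome 5, 122591575 to 122640903, minus strand), the SERCA2 pump, had the highest level and small effects. In WT VSMC it was 332, 308, 675 and 429 FPM under Control conditions, 307, 383, 750 and 379 FPM with HG+FFA, 337, 369, 751 and 566 FPM with AII+NA and 368, 393, 723 and 533 FPM with ALL stressors. Set 3 was highest throughout. With AII+NA and with ALL stressors each of the 4 sets exceeded its Control, with a log2FC of 0.21 (SE 0.10, FDR 0.506) and 0.23 (SE 0.10, FDR 0.170). In KO VSMC it was 484, 240, 250 and 264 FPM under Control conditions, set 5 standing above the others, and the largest effect was 0.27 (SE 0.12, FDR 0.509) with AII+NA. In EC, where set 13 had the highest mean (579 FPM), it was higher with HG+FFA in 8 of 9 sets (log2FC 0.20, SE 0.07, FDR 0.1098). Of its exon bases 30.3% are shared with genes on the opposite strand. The other SERCA genes, Atp2a1 and Atp2a3, did not exceed 0.911 FPM under Control conditions in any cell type.

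Stim1 (ENSMUSG00000030987, chromosome 7, 101916979 to 102086526, plus strand), the Ca2+ sensor of the store, had a negative log2FC in WT VSMC under each stressor. So did Kcnma1 and, between -0.03 and -0.00097, Trpc1. None of these genes was called, and some sets of each went the other way. Control libraries had 153, 127, 151 and 145 FPM, libraries with AII+NA 123, 94.5, 153 and 103 FPM and libraries with ALL stressors 144, 106, 142 and 90.4 FPM. With ALL stressors each set was below its Control (log2FC -0.27, SE 0.10, FDR 0.125), and with AII+NA 3 of 4 were (-0.30, SE 0.10, FDR 0.306). Both were called only without the count filter (FDR 0.0427 and 0.0364). HG+FFA gave 129, 132, 137 and 121 FPM (-0.14, SE 0.10, FDR 0.658). In KO VSMC the 3 effects lay between -0.04 and 0.09 (SE 0.09 to 0.10), and for AII+NA the log2FC of WT VSMC less that of KO VSMC was -0.35 (SE 0.14, FDR 0.396). In EC Stim1 was lower with ALL stressors in 7 of 9 sets (log2FC -0.17, SE 0.07, FDR 0.225).

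Orai1 (ENSMUSG00000049686, chromosome 5, 123153043 to 123168535, plus strand), the channel that Stim1 opens, had 32.9, 26.4, 32.3 and 19.9 FPM in WT VSMC under Control conditions, 33.7, 29.7, 37.2 and 26.7 FPM with AII+NA and 34.0, 30.96, 33.9 and 27.9 FPM with ALL stressors. Each set was higher than its Control under both, by a log2FC of 0.20 (SE 0.09, FDR 0.483) and 0.20 (SE 0.09, FDR 0.185). In KO VSMC the values were 21.2, 28.0, 27.5 and 26.4 FPM under Control conditions and 22.6, 28.1, 20.9 and 13.5 FPM with AII+NA (log2FC -0.31, SE 0.15, FDR 0.511). The log2FC of the genotypes differed in sign, although 2 sets of KO VSMC were above and 2 below their Control. The difference itself, WT VSMC less KO VSMC, was 0.52 (SE 0.18, FDR 0.395). Across the members 0 of 8 passed in this test of genotypes under HG+FFA (0% of 18339 genes), 0 under AII+NA (0%) and 0 under ALL stressors (0.0109%), with 0, 2 and 0 at an unadjusted p under 0.05 (3.08%, 11.9% and 7.42%) and 0 by DESeq2 in each (0.282%, 0.353% and 0.476%). In EC Orai1 effects were 0.06 (SE 0.13), 0.06 (SE 0.13) and 0.19 (SE 0.13).

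Trpc1 (ENSMUSG00000032839, chromosome 9, 95587112 to 95632428, minus strand), a cation channel subunit, was among the members with the fewest counts that could be tested. In WT VSMC it had 10.2, 5.49, 4.09 and 8.83 FPM under Control conditions and 9.20, 6.03, 4.14 and 8.32 FPM with ALL stressors, and its 3 stressor effects lay between -0.03 and -0.00097 (SE 0.12 to 0.13). In KO VSMC set means went from 3.09 FPM in set 8 to 11.1 FPM in set 6, and in EC from 4.53 FPM in set 14 to 19.5 FPM in set 17. The effects there lay between -0.08 and 0.20 on the log2 scale.

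EC and WT VSMC differed in 2 members under Control conditions, 1 in each direction, out of 7 tested (12% of 17115 genes passed, 6.7% higher and 5.35% lower in EC). An unadjusted p under 0.05 was found for 3 of 7 (30.5% of all genes), and DESeq2 called 3 (17.9%), the third being Ryr2, which the filter kept out of edgeR's test. Kcnma1 was lower in EC. The 9 EC libraries had 0 to 0.720 FPM with a median of 0.127, and the 4 WT VSMC libraries 7.29 to 77.7 FPM, so that the groups did not overlap (log2FC -6.85, SE 0.97, FDR 0.00154). Itpr1 was higher in EC, with 48.1 to 216 FPM and a median of 139 against 26.5 to 38.0 FPM, again without overlap (log2FC 2.21, SE 0.38, FDR 0.00407). When each WT VSMC set was left out, Kcnma1 had a log2FC between -7.17 and -5.60, the smallest in size without set 4. Itpr1 was at 2.46 and Kcnma1 at -7.75 without EC sets 9, 11 and 13.

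The remaining members were not called. Cacna1c had a log2FC of 1.06 (SE 0.72, FDR 0.338), which fell to 0.07 (FDR 0.941) without EC sets 9, 11 and 13. Atp2a2 went the other way, from -0.62 (SE 0.29, FDR 0.168) to -0.89 (FDR 0.0135), and was then called as well. These sets were left out after their marker values had been seen. Orai1 was at -0.79 (SE 0.35, FDR 0.146), Trpc1 at 0.63 (SE 0.37, FDR 0.258) and Stim1 at -0.06 (SE 0.20, FDR 0.870). Cell type, tissue of origin and batch B1 or B2 cannot be told apart in these values, and the animal that WT VSMC set 1 shares with EC set 9 was not modelled.

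Around the members, 106 other genes of calcium handling and ion transport were counted in 11 lists. With ALL stressors in WT VSMC 6 of the 79 tested were higher and 6 lower (3.92% and 3.53% of all genes), and the median log2FC was -0.02 against -0.01 over all genes. The list of Ca2+ sensors and the calcineurin pathway, which also takes in Ca2+/calmodulin kinases, held 3 of the higher and 2 of the lower genes. Rcan2, a regulator of calcineurin, had 50.2 to 135 FPM under Control conditions and 193 to 255 FPM with ALL stressors (log2FC 1.33, SE 0.27, FDR 0.00758), without overlap. Camk2a, a Ca2+/calmodulin kinase, went from a median of 2.81 to 4.68 FPM (0.74, SE 0.18, FDR 0.0210), and Irag1, which links IP3 receptors to cGMP kinase, from 9.45 to 13.8 FPM (0.73, SE 0.21, FDR 0.0423). Kcnj8, the pore of the vascular ATP-sensitive K+ channel, was lower at a median of 1.72 FPM after 4.61 FPM (-1.44, SE 0.29, FDR 0.00730). Itpr3 (-0.43, SE 0.10, FDR 0.0188) and Nfatc4, a transcription factor freed by calcineurin (-0.42, SE 0.09, FDR 0.0117), were lower as well. The partners of Cacna1c, named after their values had been seen, split, with the β subunit Cacnb3 at 0.41 (SE 0.07, FDR 0.00393) and the α2δ subunit Cacna2d1 at -0.26 (SE 0.08, FDR 0.0440).

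None of these 106 genes was called by edgeR in WT VSMC with HG+FFA or AII+NA (0 of 79, with 12 and 15 at an unadjusted p under 0.05, against 11.2% and 9.42% of all genes), nor in KO VSMC with HG+FFA, AII+NA or ALL stressors (0 of 84, with 6, 5 and 10, against 12.4%, 9.76% and 10.5% of all genes). In EC 2 of 80 were higher and 2 lower with HG+FFA (1.64% and 1.88% of all genes), 0 passed with AII+NA (7 at an unadjusted p under 0.05, against 6.67% of all genes), and 1 was higher and 3 lower with ALL stressors (1.14% and 2.04%). Camk2a was higher under both HG+FFA (0.89, SE 0.19, FDR 0.00533) and ALL stressors (1.02, SE 0.19, FDR 0.00156), and Clcn3, a chloride transporter, with HG+FFA (0.33, SE 0.08, FDR 0.0201). The store buffer Calr was lower at -0.38 (SE 0.08, FDR 0.00411) and -0.35 (SE 0.08, FDR 0.00901), Nfatc1 at -0.30 (SE 0.07, FDR 0.0137) and -0.30 (SE 0.07, FDR 0.0165), and the plasma membrane Ca2+ pump Atp2b4 at -0.44 (SE 0.11, FDR 0.0194) with ALL stressors. HG+FFA and ALL share the Control libraries.

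Between EC and WT VSMC 6 of 80 were higher and 6 lower (6.7% and 5.35% of all genes), with a median log2FC of 0.19 against 0.05 over all genes. Higher in EC were Clca3a1 (36.1 to 1276 FPM against 10.1 to 37.5 FPM, log2FC 4.82, SE 0.97, FDR 0.00890), the inward rectifier Kcnj2 (3.94, SE 0.99, FDR 0.0238) and Nfatc1 (1.98, SE 0.39, FDR 0.00776). Lower were Abcc9, the partner subunit of Kcnj8 (-4.65, SE 1.102, FDR 0.0186), and the voltage-gated Kcna6 (-4.49, SE 0.92, FDR 0.00949).

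The genes whose pattern was most like that of Cacna1c, the member with the smallest FDR under ALL stressors in WT VSMC, were Peak1 (Pearson r = 0.927), Svep1 (r = 0.925) and Mlxip (r = 0.910), out of 11298 protein-coding genes with at least 3 FPM. The r is a description over the 31 libraries of VSMC after each set was centred on the log2 scale, and these libraries share animals and depth.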

How the data were processed

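RNA was measured in 69 libraries of cultured WT VSMC, KO VSMC and EC. The authors deposited raw counts per gene: per the study's methods, paired-end reads were aligned with HISAT2 2.1.0 to mm39 and counted over exons, multi-mapping reads included. Whether counting used strand was not stated, so reads of a gene and of an antisense partner cannot be told apart. Of the 56953 gene rows 56310 were in the annotation used here for position and exon length, and 0.0241% of the counts were not.

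Groups came from the sample labels. The counts were tested with edgeR 4.0.16 (R 4.3.3; TMM, filterByExpr, quasi-likelihood F-test, Benjamini-Hochberg FDR over all genes tested, threshold 0.05). Stressor comparisons were fitted within a cell type with the set as a block, since the libraries of a set come from 1 animal. Deviations from the condition means correlated at a mean r of 0.818, 0.804 and 0.858 within sets and of -0.259, -0.264 and -0.0884 between sets (WT VSMC, KO VSMC, EC). The 2 Control-only comparisons had no block. The SE is the absolute log2FC divided by the square root of F. A pseudocount of 0.1 FPM was used for plots. Intervals of 3 counts for a library at 0 cover counting error only. No 2 libraries differed by as little as sampling noise. The tests were checked on simulated counts whose changes were larger than any stressor effect of a member in WT VSMC. Whether effects as small as those of the members would be found was not checked.

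Alternatives were DESeq2 1.42.0, DESeq2's size factors, no count filter, no block, the animal as block, only the conditions compared, only complete sets, EC sets 17 and 18 summed, counts summed per set, the study's own threshold, each VSMC set left out, and EC without sets 9, 11 and 13, the last added after the data had been seen. All 10 members are described. Of the other pathway genes, at most 3 higher and 3 lower per comparison are named, those with the largest absolute log2FC among the called ones with at least 3 FPM, besides Egfr, relatives of the members given for their levels, Cacnb3 and Cacna2d1 (chosen after their values were seen), and the 3 genes most like Cacna1c by Pearson r after centring each set. One gene that this rule would name is not reported here. The members and gene lists were chosen with earlier results of these data known. Promoter sequences are RefSeq's for GRCm38.p6, whereas gene positions are on GRCm39, and no positions were converted.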

Additional observations from a re-analysis of the deposited data

Results flagged for a closer look

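Among the groups of 4 to 10 libraries, 14 had a library far from the others by Dixon's ratio, where chance gives about 5.45. Among members with more than a few counts, Itpr1 was at 38.0 FPM in WT VSMC Control set 2, above 26.5 to 27.1 FPM in the other sets. Atp2a2 was at 484 FPM in KO VSMC Control set 5, with the next set at 264 FPM, and at 647 FPM in EC set 13 with HG+FFA, with the next at 352 FPM. Orai1 was at 4.29 FPM in EC set 17 with ALL stressors, the lowest value, with the next at 10.9 FPM.

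The other 10 were values of a few counts, mostly in groups otherwise at 0. Kcnmb1 was at 0.0729 FPM in WT VSMC Control set 4, and in KO VSMC set 5 at 0.243 FPM in Control, 0.0993 FPM with HG+FFA and 0.265 FPM with AII+NA. Ryr2 was at 0.364 FPM in KO VSMC set 5 with HG+FFA. Pln was at 0.0389 FPM in WT VSMC set 1 with AII+NA, 0.0357 FPM in WT VSMC set 2 with ALL stressors, 0.0959 FPM in KO VSMC set 7 with HG+FFA, 0.111 FPM in EC set 18 with HG+FFA and 0.118 FPM in EC set 12 with ALL stressors.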

How the results depend on the processing

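Of 167 counts of called members under the alternatives, 155 stayed within 1.5 times the count reported and 12 did not. Without the count filter WT VSMC had 1 called member with HG+FFA, 1 with AII+NA and 2 with ALL stressors, and KO VSMC 1 with HG+FFA, 1 with AII+NA and 1 for the departure from additivity, in place of 0. With only the 2 conditions compared, WT VSMC had 1 with HG+FFA and 1 with ALL stressors. DESeq2 and DESeq2's size factors gave 1 each for ALL stressors in WT VSMC. Leaving out 1 set at a time gave 0 to 1 for ALL stressors in WT VSMC, the 1 being Cacna1c without set 2, and 0 to 2 for HG+FFA in KO VSMC, the 2 being Cacna1c and Itpr1 without set 5. EC against WT VSMC stayed at 2 and the other counts at 0 when each VSMC set was left out. Without the replicate block the stressor counts were 0, as with the pairing of a set, so the block changed no call. Of 1184 values of single members 15 passed the threshold only under an alternative and 0 called values changed sign, while 91 values called in neither fit had another sign. Without EC sets 9, 11 and 13 EC against WT VSMC had 3 called members. The cause of these changes was not tested. Low counts limit what can be said of Kcnmb1, Pln and Ryr2, and of Kcnma1 in EC, where a library held at most 41, 5, 87 and 27 counts.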
